A study of Sus scrofa with 8 samples.

Results

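Macrophage and myeloid cell genes of the pig heart are described here, from a list of 52 genes that mark these cells, sense microbes and damage for them, or carry out their work in lysosomes, cytokine signalling and oxidant production. Of these, 44 symbols had a row in the table of 18975 genes, and TLR4 and CEBPB had 2 rows each, which gave 46 rows. CSF1, MRC1, FCGR3A, SIRPA, CD80, CYBA, CYBB and GPNMB had no row under their symbol. At least 1 FPKM (fragments per kilobase of exon, scaled by the mapped fragments of a library) in at least 2 libraries was required for a test, and 30 of the 46 rows and 11913 of all genes met this. Each of the 30 reached it in libraries of more than 1 group.

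Macrophages are the main resident leukocytes of the mammalian heart. They clear dead cells and debris, and they live on signals through the receptor CSF1R, while monocytes arriving from blood carry CD14 and activating Fc receptors. Bulk RNA of heart is mostly RNA of muscle cells, so transcripts of these cells are a small part of it.

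The study asked which genes differ between a breed native to high altitude and a lowland breed. TH and TL were Tibetan pigs raised in the highlands of Tibet and in lowland Beijing, and YH and YL were Yorkshire pigs raised at the same 2 places. All were males of 6 months without a further treatment. Each group had 2 libraries, each made from the pooled heart RNA of 4 pigs, so p-values measure the spread between pools. Neither breed nor place can be separated from whatever else differed between the herds, such as feed or housing.

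Reads on genes were between 15687000 and 26723000 per library. Cardiomyocyte markers summed to 16529 FPKM in YL2 and to between 28992 and 47957 FPKM in the other libraries, as the label of heart requires. The part of the lower sum of YL2 in the YL values of the members was not tested. YL2 stood apart from the other libraries. Its mean correlation with them was 0.86, against 0.904 to 0.931 for the rest, and its kidney tubule markers summed to 4450 FPKM, against at most 17.0 elsewhere. Genes of the mitochondrial genome took between 57.7% (YH2) and 87.6% (TH1) of the summed FPKM. TH1 also stood apart, as the highest library for 25% of the genes tested and the lowest for 26.7% of them, and it was the lowest for 10 of the 30 members tested. The same shares for YL2 were 24.7% and 22.5%. YH2 was the highest library for 13 of the 30 members tested and for 13.7% of all genes, and its part in the high YH levels was not tested beyond the values given without it.

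Levels of the member genes were low as a rule. Mean FPKM over the 8 libraries was at or above 100 for 1 row (CTSB), between 10 and 100 for 7, between 1 and 10 for 20 and under 1 for 18. No member was called in any comparison by limma on log2(FPKM + 1), where a call needed a log2 fold change beyond 1 in either direction and an adjusted p below 0.01. The share of all genes called was 0.0336% in TH to YH, 0.00839% in TL to YL, 0.0504% in TH to TL and 0% in YH to YL. In YH to YL, where no gene was called, 711 genes had an unadjusted p under 0.05. The heat map of the 30 rows tested shows where the single libraries stood.

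**Figure D1:**
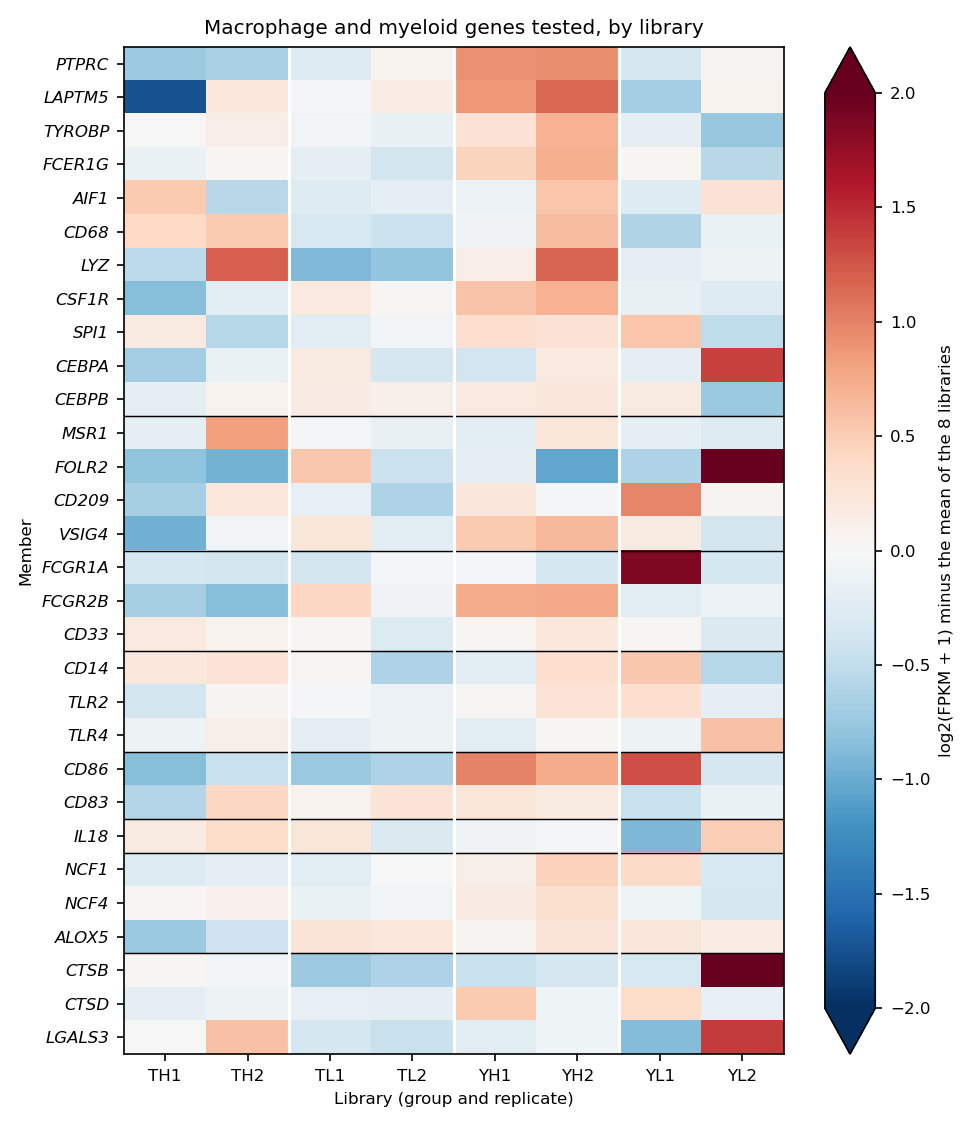
Each cell shows log2(FPKM + 1) of 1 member in 1 library minus that member's mean over the 8 libraries, with members ordered by role and black lines between roles. The YH columns are red for PTPRC, LAPTM5, CSF1R and FCGR2B, and single dark cells mark FOLR2 and CTSB in YL2 and FCGR1A in YL1; the colour scale ends at 2 on either side.

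Part of the list was highest in Yorkshire pigs at high altitude. Both YH libraries lay above all of the other 6 libraries for 9 of the 30 members tested, namely CEBPB, CSF1R, FCER1G, FCGR2B, LAPTM5, NCF4, PTPRC, TYROBP and VSIG4. The same held for 6.9% of all genes tested. Of the 9, 6 belong to the 11 tested rows of leukocyte and macrophage identity, and the other 5 of those rows (AIF1, CD68, LYZ, SPI1 and CEBPA) had another order. Both TH libraries were below the other 6 for ALOX5, FCGR2B and PTPRC, as they were for 8.06% of all genes. In fold change PTPRC and FCGR2B differed most relative to their error.

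PTPRC (chr10:26308758-26332284, Sscrofa10.2) encodes CD45, the tyrosine phosphatase on nearly all leukocytes. It measured 1.29 and 1.41 FPKM for TH, 2.14 and 2.98 for TL, 6.10 and 6.19 for YH and 1.98 and 2.91 for YL. The YH pools stood at 4.54 times the TH mean and 2.51 times the YL mean, and TH was the lowest group without overlap. The log2 fold change of TH to YH was -1.60 (SE 0.230, limma adjusted p = 0.0601), that of YH to YL 1.07 (adjusted p = 0.582) and that of TH to TL -0.59 (adjusted p = 0.404). None passed the threshold.

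LAPTM5, a lysosomal membrane protein of blood cells, varied more within TH than within any other group. Its values were 2.60 and 13.02 FPKM in TH1 and TH2, 10.8 and 12.4 in TL1 and TL2, 21.1 and 25.8 in YH1 and YH2, and 6.57 and 11.7 in YL1 and YL2. TH to YH gave -1.78 (SE 0.602, limma adjusted p = 0.241) on the log2 scale, with -0.79 when TH1 was left out and -2.76 when TH2 was. YH again held the 2 highest libraries.

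TYROBP and FCER1G encode the adaptor chains through which many activating receptors of myeloid and natural killer cells signal. TYROBP measured 21.9 and 24.0 FPKM in the TH pools, 21.1 and 19.7 in the TL pools, 27.1 and 36.1 in the YH pools and 19.3 and 12.5 in the YL pools. YH exceeded YL by 0.96 on the log2 scale (SE 0.266, limma adjusted p = 0.688), or by 0.67 without YL2. TH to YH gave -0.43 (adjusted p = 0.459), or -0.23 without YH2. YH was thus the highest group and YL the lowest, with no overlap at either end. TL to YL was 0.37, or 0.08 without YL2, with YL1 at 19.3 FPKM beside TL2 at 19.7. Both YL libraries were below the other 6 for 4.93% of all genes. FCER1G gave 17.2 and 19.1 FPKM for TH, 16.5 and 14.5 for TL, 25.9 and 31.5 for YH and 19.5 and 12.5 for YL. TH to YH was -0.63 (SE 0.259, limma adjusted p = 0.300) and YH to YL was 0.83 (adjusted p = 0.763) for it, or 0.53 without YL2.

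CSF1R (chr2:157856238-157882290), the receptor on which macrophages depend for survival, was also highest in YH and lowest in TH by the group mean. It measured 1.44 and 2.74 FPKM in TH1 and TH2, 4.03 and 3.46 in TL1 and TL2, 5.48 and 6.06 in YH1 and YH2, and 2.96 and 2.67 in YL1 and YL2. The TH to YH difference was -1.16 (SE 0.254, limma adjusted p = 0.127) on the log2 scale, the TH to TL difference -0.65 (adjusted p = 0.405, or -0.34 without TH1) and the YH to YL difference 0.83 (adjusted p = 0.763). TH2 lay just above YL2, so TH was not apart from YL, while YH was apart from all other groups.

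**Figure D2:**
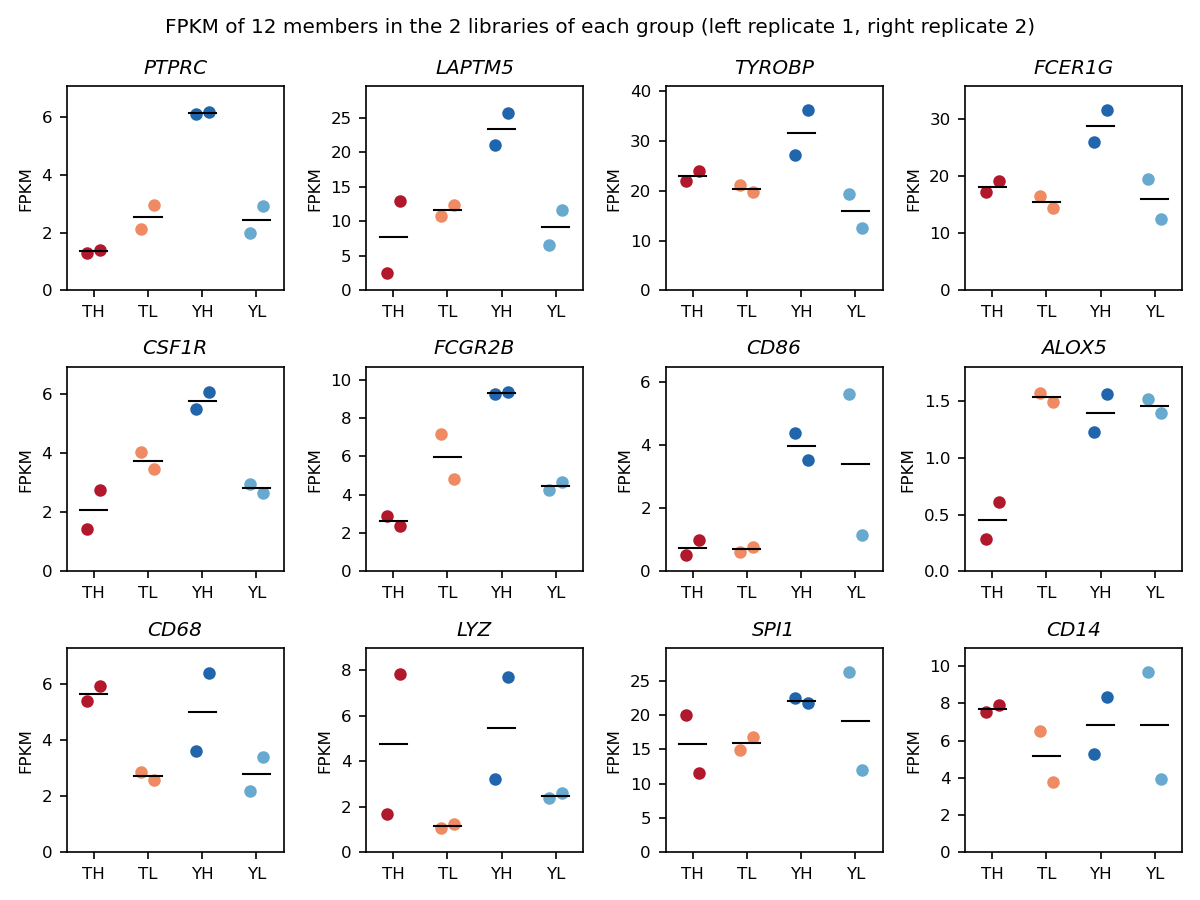
FPKM of 12 members (vertical axis, from 0) in the 2 libraries of each group, with replicate 1 on the left, replicate 2 on the right and a bar at the mean. PTPRC, CSF1R and FCGR2B are highest in both YH libraries, LYZ is lowest in both TL libraries, and CD14 and SPI1 overlap between most groups.

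The remaining identity genes did not share this order. AIF1, which encodes the actin-binding protein IBA1 of macrophages, measured 16.8 and 7.34 FPKM in the TH pools, 9.35 and 9.75 in the TL pools, 10.4 and 17.0 in the YH pools and 9.33 and 14.1 in the YL pools, and its groups overlapped in every comparison. CD68, a glycoprotein of macrophage lysosomes, measured 5.39 and 5.95 FPKM for TH, 2.89 and 2.60 for TL, 3.63 and 6.43 for YH and 2.18 and 3.41 for YL. Within each breed the highland libraries of CD68 were above the lowland ones, with 0.83 for TH to TL (SE 0.290, limma adjusted p = 0.352) and 0.65 for YH to YL (adjusted p = 0.784) on the log2 scale. The latter was 0.31 without YH2, 0.41 without YL1 and 0.99 without YH1. EIF4A1, a translation factor gene at 19.1 to 66.2 FPKM, lies 785 bases from CD68, and its part in the CD68 values was not tested.

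LYZ encodes lysozyme, an antibacterial enzyme of monocytes and granulocytes. Its values were 1.70 and 7.83 FPKM in TH1 and TH2, 1.09 and 1.24 in TL1 and TL2, 3.24 and 7.69 in YH1 and YH2, and 2.38 and 2.61 in YL1 and YL2. Both TL libraries lay below the other 6, which was so for 3.86% of all genes. The log2 fold change was 1.17 in TH to TL (SE 0.571, limma adjusted p = 0.491) with 0.32 without TH2 and 2.03 without TH1. TH1 and TH2 differed more from each other than TH1 did from TL.

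The transcription factors of the myeloid lineage overlapped between most groups or stood out in 1 library. SPI1 (PU.1), the factor that commits cells to this lineage, measured 20.0 and 11.5 FPKM in the TH pools, 14.9 and 16.8 in the TL pools, 22.4 and 21.7 in the YH pools and 26.3 and 11.99 in the YL pools. TH was below YH in both pools, by a log2 fold change of -0.51 (SE 0.398, limma adjusted p = 0.553), which was -0.88 without TH1 and -0.13 without TH2, and the other comparisons overlapped. The mean of SPI1 over the 8 libraries was 18.2 FPKM, beside 3.61 for CSF1R. Its locus ends 2094 bases from MYBPC3, a sarcomere gene at 419 to 1143 FPKM, whose part in it was not tested. CEBPB was between 1.90 and 2.84 FPKM in 7 libraries and 0.959 in YL2, and CEBPA was between 0.528 and 1.82 in 7 libraries and 5.35 in YL2. The second CEBPB row stayed at or under 0.217 FPKM.

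Summed FPKM of the 12 identity rows was 90.7 and 96.6 for TH, 87.3 and 86.9 for TL, 129 and 163 for YH and 94.6 and 80.7 for YL. The sum was highest in both YH libraries and close to level elsewhere. Rows at high levels lead it, with mean FPKM of 22.7 for TYROBP and 19.6 for FCER1G beside 3.13 for PTPRC and 3.61 for CSF1R. Of the 11 identity rows tested, 6 were below 0 in TH to TL and 5 above, with a median log2 fold change of -0.05. Fewer cells of a type and less RNA per cell cannot be told apart in bulk tissue, and this holds for all results here. Markers of lymphocytes were also highest in YH, but unlike the identity sum they were lower in TH than in TL. Their 22 rows summed to 14.4 and 14.9 FPKM in TH1 and TH2, 29.7 and 44.8 in TL1 and TL2, 67.4 and 71.8 in YH1 and YH2, and 44.7 and 34.4 in YL1 and YL2. In TH to TL, 13 of the 14 lymphocyte markers tested were below 0 and 1 above, with a median log2 fold change of -0.40, and GNLY gave -2.79. Of the 14 tested, 12 were lower in TH than in YH and 10 were higher in YH than in YL at an unadjusted p under 0.05, where 8.47% of all genes were lower in TH and 4.39% higher in YH, and 0 were called. CD2, a T and natural killer cell receptor, had the smallest adjusted p of that list, 0.0393 by limma, with a log2 fold change of -1.99 in TH to YH. PTPRC and LAPTM5 are also made by lymphocytes, and the part of these cells in the result was not tested. Markers of other tissue cells were also compared between YH and YL. At an unadjusted p under 0.05, 0 of 9 fibroblast rows and 1 of 7 endothelial markers were higher in YH, and 0 were lower. Of all genes 4.39% were higher and 1.58% lower, and 0 of these markers were called. The 9 fibroblast rows tested count COL1A1 by 2 rows. Groups did not overlap for 7 of the 9 and for 6 of the 7 endothelial markers. All of these were higher in YH, where 21.9% of all genes were. Their sums were 333 and 405 FPKM in YH against 283 and 244 in YL for fibroblasts, and 157 and 179 against 109 and 108 for endothelium. In TH to YH, 3 fibroblast rows were higher and 1 lower without overlap, and the 2 COL1A1 rows gave -0.35 and 0.59. Of the endothelial markers, 2 were higher and 3 lower without overlap, where 25.2% of all genes were higher and 27.3% lower. All 4 red blood cell markers tested were higher in TH without overlap, with a median log2 fold change of 1.102. Of 10 cardiomyocyte markers, 2 were higher and 3 lower without overlap, from -3.16 for MYH6 to 2.34 for MYL7, and their median was -0.04. The part of these cells was not tested either.

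**Figure D3:**
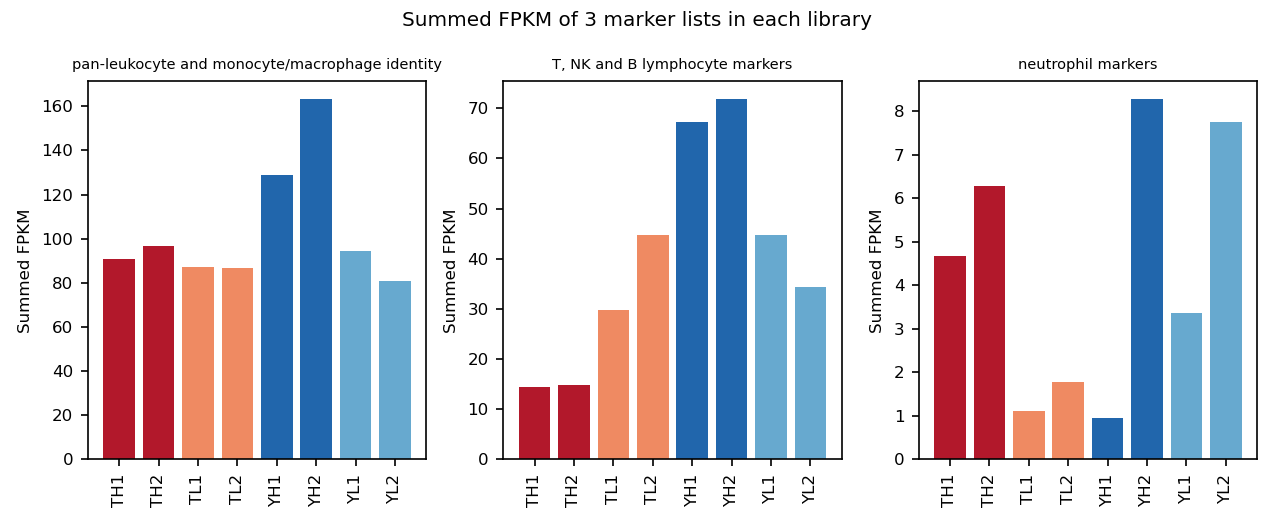
Summed FPKM per library (bars from 0) of the identity rows, of lymphocyte markers and of neutrophil markers, each panel with its own scale. The identity and lymphocyte sums are highest in YH1 and YH2, and the neutrophil sum is between 0.955 and 8.27, with both TL libraries below both TH and both YL libraries.

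Neutrophil markers were near the floor. Their 10 rows summed to 4.66 and 6.28 FPKM for TH, 1.11 and 1.78 for TL, 0.955 and 8.27 for YH and 3.36 and 7.75 for YL. TL thus lay below TH and YL without overlap, as LYZ did, and the part of these cells in the LYZ values was not tested. MPO and MMP8 stayed at or under 0.0369 FPKM, and S100A12, an antimicrobial protein of granulocytes, reached at most 5.86, with a log2 fold change of 1.92 in TH to TL (SE 0.725, limma adjusted p = 0.385) and -1.81 in TL to YL (adjusted p = 0.525), or -1.07 without YL2 and -2.55 without YL1. TREM1, a receptor of neutrophils and monocytes that is a member of the list, was at 0 FPKM in 7 libraries and 0.0903 in YH1.

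Receptors of resident macrophages differed in which library was highest. FOLR2 (chr9:7547318-7551948), the folate receptor of resident tissue macrophages, measured 5.49 and 4.90 FPKM in the TH pools, 15.4 and 7.41 in the TL pools, 8.99 and 4.51 in the YH pools and 6.39 and 124 in the YL pools. The highest value, in YL2, was the library with kidney markers. TH was below TL in both pools, with a log2 fold change of -0.92 (SE 1.17, limma adjusted p = 0.817) that was -0.44 without TL1 and -1.41 without TL2. Without YL2 the fold change of YH to YL was 0.01, against -2.03 with it. YL2 exceeded every other library by more than 2 times for FOLR2, CTSB and CEBPA, as it did for 6.48% of all genes tested, and the part of kidney RNA in these 3 was not tested.

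CD209, a lectin of macrophages and dendritic cells, was 1.08 and 2.80 FPKM for TH, 1.92 and 1.15 for TL, 2.86 and 2.23 for YH and 5.46 and 2.42 for YL. TL was below YL in both pools (log2 fold change -0.91, SE 0.411, limma adjusted p = 0.6002), with -0.45 without YL1 and -1.37 without YL2. VSIG4, a complement receptor of resident macrophages, ranged from 0.142 FPKM in TH1 to 2.50 in YH2, and TH to YH was -1.10 for it on the log2 scale (adjusted p = 0.238), or -0.64 without TH1. The scavenger receptor gene MSR1 ranged from 0.894 FPKM in YL2 to 3.01 in TH2. MARCO, another scavenger receptor, stayed at or under 0.376 FPKM, and F13A1, the transglutaminase chain of coagulation factor XIII, at or under 0.571.

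CD163, the haemoglobin scavenger receptor, was listed between 0 and 0.0777 FPKM. In the gene-names table the Ensembl ID of that row belongs to SCART1 and not to CD163, so the level of CD163 cannot be read from it. Of the 46 rows, 32 carried the same symbol in both tables, 13 had no entry there, and this was the 1 with another symbol.

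Fc receptors bind antibodies. FCGR2B (chr4:96888985-96908203), the inhibitory receptor for IgG, measured 2.87 and 2.39 FPKM in TH1 and TH2, 7.16 and 4.81 in TL1 and TL2, 9.27 and 9.35 in YH1 and YH2, and 4.23 and 4.67 in YL1 and YL2. Both YH libraries were the highest and both TH libraries the lowest of all 8, and the YH mean was 3.54 times that of TH. The log2 fold change was -1.51 in TH to YH (SE 0.230, limma adjusted p = 0.0691), -0.93 in TH to TL (adjusted p = 0.248), 0.92 in YH to YL (adjusted p = 0.652) and 0.34 in TL to YL (adjusted p = 0.721, or 0.09 without TL1 and 0.58 without TL2). Genes of this receptor family are alike in sequence, and the counting could have split reads between them.

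FCGR1A, the high-affinity IgG receptor, lay between 1.33 and 1.95 FPKM in 7 libraries and reached 10.01 in YL1. YL1 exceeded every other library by more than 2 times for this member alone, and for 0.537% of all genes. CD33, an inhibitory Siglec, was between 1.24 and 2.20 FPKM. TREM2, the lipid-sensing receptor of macrophages, was at 0 in TH1 and YL1 and at most 0.580 in TH2, on 5 reads.

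Pattern recognition genes overlapped between most groups. CD14, the co-receptor for bacterial lipopolysaccharide, measured 7.55 and 7.90 FPKM in the TH pools, 6.54 and 3.78 in the TL pools, 5.31 and 8.32 in the YH pools and 9.68 and 3.95 in the YL pools. TH exceeded TL by 0.54 on the log2 scale (SE 0.420, limma adjusted p = 0.680), by 0.21 without TL2 and by 0.87 without TL1, and every other comparison overlapped. TLR4, which signals with CD14, was between 1.22 and 2.90 FPKM, and its second row at most 0.0400. TLR2 was between 0.515 and 1.46 FPKM at a locus it shares with another row. The endosomal receptors TLR7 and TLR8 and the inflammasome sensor NLRP3 were at or under 0.538 FPKM.

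Costimulation split by breed for 1 gene. CD86 (chr13:148057107-148104960), a ligand with which antigen-presenting cells activate T cells, measured 0.509 and 0.994 FPKM for TH, 0.624 and 0.775 for TL, 4.41 and 3.54 for YH and 5.64 and 1.15 for YL. All 4 Yorkshire libraries were above all 4 Tibetan ones, and YL2 was the closest to them. The YH mean was 5.29 times the TH mean. The log2 fold change was -1.52 in TH to YH (SE 0.494, limma adjusted p = 0.229) and -1.16 in TL to YL (SE 0.494, adjusted p = 0.564). The latter was -1.97 without YL2 and -0.34 without YL1, so its size depends on which YL pool is kept. YL2 was the library with kidney markers. CD83, a marker of mature dendritic cells, measured 0.357 and 1.70 FPKM in TH1 and TH2, 1.12 and 1.45 in TL1 and TL2, 1.39 and 1.31 in YH1 and YH2, and 0.487 and 0.844 in YL1 and YL2. YL was below TL and below YH in both pools, with 0.46 for TL to YL (SE 0.342, adjusted p = 0.744, or 0.31 without YL1) and 0.51 for YH to YL (adjusted p = 0.784), at a locus that CD83 shares with RNF182.

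Cytokine transcripts were close to the limit of detection. IL1A, IL1B, IL6, IL10 and TNF, which carry inflammatory or, for IL10, restraining signals, were all at or under 0.598 FPKM. IL6 rested on at most 3 reads per library and IL1A on at most 4. IL1A, IL1B, IL6, IL10 and TNF were below the filter, so their differences were not tested in the main fit. IL18, which is stored as a precursor and released after inflammasome activation, was between 0.676 and 1.86 FPKM in 7 libraries and 0.0888 in YL1.

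Among the oxidant and lipid mediator enzymes, ALOX5, the enzyme that starts leukotriene synthesis, was lowest in Tibetan pigs at high altitude. It measured 0.283 and 0.613 FPKM in the TH pools, 1.57 and 1.49 in the TL pools, 1.22 and 1.56 in the YH pools and 1.52 and 1.39 in the YL pools. The 6 libraries outside TH lay close together and both TH libraries below them. TH to TL was -0.82 (SE 0.214, limma adjusted p = 0.263) and TH to YH was -0.73 (adjusted p = 0.197) on the log2(FPKM + 1) scale, or -0.65 and -0.56 without TH1, a scale that understates folds at this level. In mean FPKM, TL was 3.42 times TH. NCF1 and NCF4, cytosolic subunits of the NADPH oxidase, were between 0.579 and 1.69 FPKM and between 1.27 and 2.58 FPKM, and PTGS2 was at or under 0.603.

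CTSB and CTSD, proteases of the lysosome, had the highest levels of the list, and tissue cells make them too. CTSB (chr14:16202843-16223503), a cysteine protease, measured 242 and 225 FPKM for TH, 142 and 153 for TL, 172 and 186 for YH and 189 and 1291 for YL. Apart from YL2, the values spanned 142 to 242, with both TL libraries lowest. TH exceeded TL by 0.66 (SE 0.779, limma adjusted p = 0.800), and without YL2 the same difference had an SE of 0.193 and an adjusted p of 0.174. TL to YL was -1.74 with YL2 (adjusted p = 0.591) and -0.36 without it (adjusted p = 0.733). When YL1 was left out instead, so that YL2 alone stood for its group, CTSB passed the threshold in TL to YL (adjusted p = 0.00150) and in YH to YL (adjusted p = 0.00198), and FOLR2 did in YH to YL (adjusted p = 0.00727).

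CTSD, an aspartic protease, measured 77.2 and 81.1 FPKM in TH1 and TH2, 77.5 and 76.9 in TL1 and TL2, 126 and 82.5 in YH1 and YH2, and 113 and 78.1 in YL1 and YL2. Yorkshire pools were above Tibetan ones at each altitude, with -0.36 for TH to YH (SE 0.290, limma adjusted p = 0.564) and -0.28 for TL to YL (adjusted p = 0.817), while the pools of either Yorkshire group lay further apart than that. TH to YH was -0.06 without YH1 and -0.66 without YH2, and TL to YL was -0.02 without YL1 and -0.54 without YL2. LGALS3, which encodes the lectin galectin-3, ranged from 1.76 FPKM in YL1 to 12.2 in YL2, so its extremes were the 2 libraries of 1 group.

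**Figure D4:**
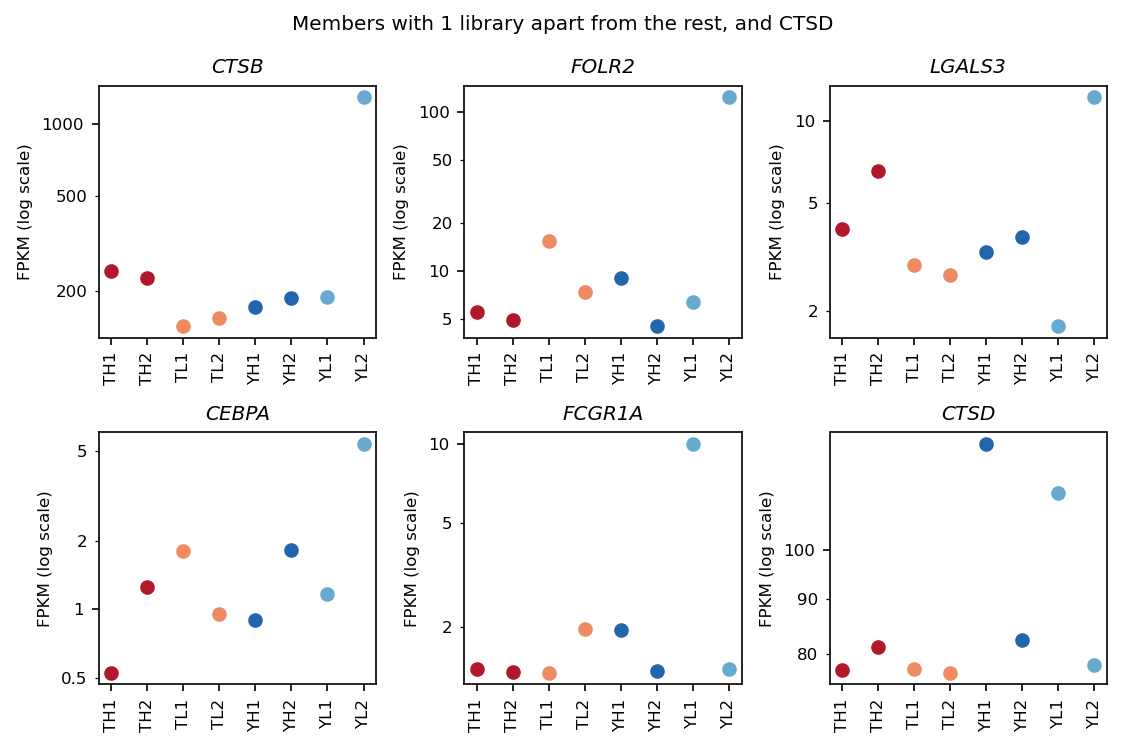
FPKM (log scale) of 6 members in each library, coloured by group. YL2 is the highest library for CTSB, FOLR2, LGALS3 and CEBPA, YL1 for FCGR1A, and CTSD has YH1 and YL1 above 100 FPKM.

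By comparison, the 30 members tested spread as follows. In TH to YH, 8 members were lower in TH at an unadjusted p under 0.05 (PTPRC, FCGR2B, CSF1R, ALOX5, CD86, VSIG4, LAPTM5 and FCER1G) and 0 were higher, where 8.47% of all genes were lower and 7.71% higher. Their median log2 fold change was -0.31, beside -0.03 for all genes tested. Groups did not overlap for 14 lower and 3 higher members, against 27.3% and 25.2% of all genes. Leaving out TH1, YH1 or YH2 brought the count of lower members to 4 in each case, and without TH1 1 member was higher.

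In YH to YL, 5 members were higher in YH at an unadjusted p under 0.05 (PTPRC, FCGR2B, TYROBP, CSF1R and FCER1G) and 0 were lower, against 4.39% and 1.58% of all genes. The median was 0.26, beside 0.04 for all genes. Groups did not overlap for 13 higher members and 1 lower, where 21.9% and 14.4% of all genes did so. Without YL2 the counts were 6 and 1, without YH2 2 and 0, and without YL1 9 and 5. This comparison and TH to YH share the YH libraries, so they are not separate evidence of a high level there.

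In TH to TL, CD68 was higher and FCGR2B, ALOX5, PTPRC and CSF1R lower at an unadjusted p under 0.05, 1 and 4 members against 5.81% and 5.53% of all genes. Groups were apart for 9 higher and 6 lower members, where 24.0% and 24.5% of all genes were. Without TL1 the counts at that p were 0 and 1, without TL2 0 and 2, and without TH1 2 and 2. The median was 0.03. In TL to YL, 0 members were higher and 0 lower at an unadjusted p under 0.05, against 5.90% and 3.04% of all genes, with a median of -0.07. Groups were apart for 5 members in each direction, where 23.8% of all genes were higher and 17.8% lower. Without YL1 the counts were 2 higher and 5 lower, and without YL2 they were 1 and 3.

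The breeds were also compared in how highland differed from lowland, by the interaction of TH to TL minus YH to YL. It was called for 0 members and 0.0336% of all genes. At an unadjusted p under 0.05 it was negative for 5 members (FCGR2B, PTPRC, CSF1R, ALOX5 and LAPTM5) and positive for 0, against 7.16% and 3.78% of all genes, and its median was -0.13, beside -0.01 for all genes. FCGR2B had the value furthest from 0 relative to its error, -1.85 (SE 0.325, limma adjusted p = 0.234). Without YL1 the counts at that p were 4 positive and 9 negative, and without YL2 they were 2 and 4. TH to TL and YH to YL ran in opposite directions without overlap for 5 members (CEBPB, CSF1R, CTSB, FCGR2B and PTPRC), where 11.3% of all genes did so.

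**Figure D5:**
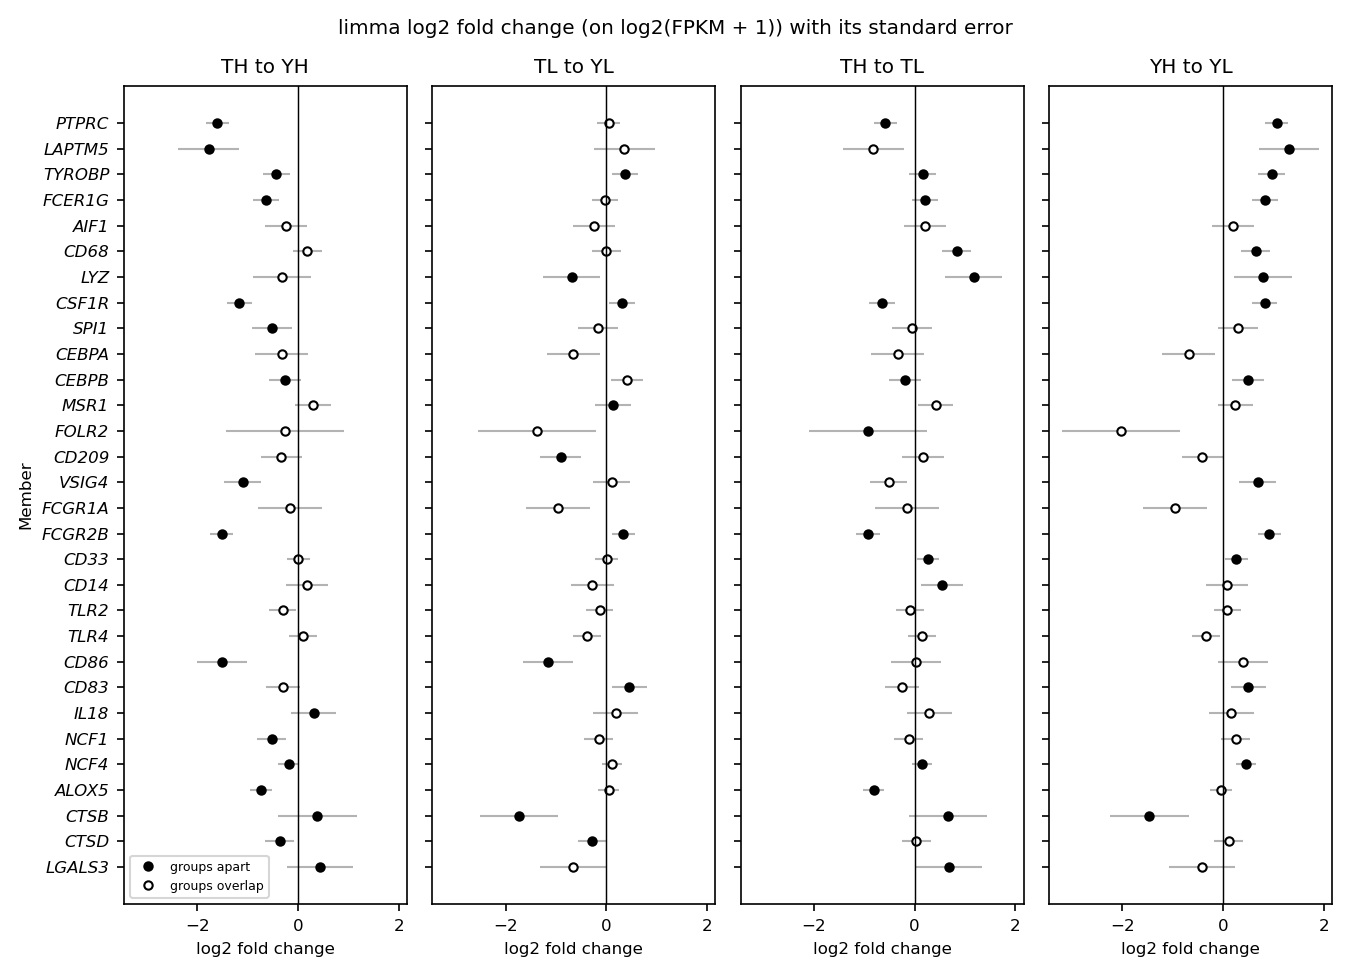
log2 fold change (horizontal axis, first group over second) of each of the 30 members with its standard error, in 4 panels for the 4 comparisons; filled points mark members with no overlap between the groups. PTPRC, LAPTM5, FCGR2B and CD86 lie furthest to the left in TH to YH, and FOLR2 and CTSB have the widest errors.

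Other genes of the same pathways were taken from a list of 64, of which 61 rows were found and 46 tested. At an unadjusted p under 0.05, 0 were higher and 16 lower in TH to YH, 4 and 2 in TL to YL, 0 and 4 in TH to TL, and 10 and 1 in YH to YL, and 0 were called. The shares of all genes were 7.71% and 8.47%, 5.90% and 3.04%, 5.81% and 5.53%, and 4.39% and 1.58% in the same order. Their medians were -0.54, 0.11, -0.13 and 0.37 in that order. C1QA, a chain of complement C1q that macrophages make, measured 4.49 and 13.1 FPKM in the TH pools, 44.1 and 45.5 in the TL pools, 33.9 and 34.1 in the YH pools and 34.3 and 22.9 in the YL pools. Both TH libraries were the lowest, with log2 fold changes of -1.995 in TH to YH (SE 0.436, limma adjusted p = 0.128) and -2.38 in TH to TL (adjusted p = 0.179), or -1.32 and -1.71 without TH1. IRF8, a transcription factor of monocytes and dendritic cells, measured 0.770 and 1.46 FPKM for TH, 2.53 and 2.06 for TL, 3.93 and 7.38 for YH and 0.605 and 0.671 for YL. It was highest in YH, by 1.97 against YL (SE 0.310, adjusted p = 0.557). RAC2, a GTPase of the leukocyte oxidase, was 1.38 and 1.36 FPKM in TH against 5.47 and 5.40 in YH.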

How the data were processed

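mRNA-seq libraries of pig heart were analysed from the table of all genes. Per the labels and methods, the authors aligned reads to Sscrofa10.2 (Bowtie 0.12.5 and TopHat2 2.0.9 in the submitters' processing notes), and deposited FPKM values per gene and library. The deposited table also holds a scaled read signal, reads times 1 factor per library, of which 99.7% to 99.8% of low values were whole multiples of the step within 0.05. It gave depth and reads per gene, and an added alternative. Another 8 columns of group means and ratios by the authors were not used. The labels of YL1 and YL2 name a TL file, and both were taken as YL by title and breed.

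limma 3.58.1 (R 4.3.3, variance trend) took log2(FPKM + 1) from the 8 libraries together, with 1 term per group, and p-values were Benjamini-Hochberg adjusted over the 11913 genes tested. Fold changes are the first group over the second, and the interaction is TH to TL minus YH to YL. On simulated data for TH to YH, 71% of 200 genes shifted by 3 on the log2 scale were recovered, with 1 false call. That shift is larger than any member fold change in TH to YH, of which LAPTM5 at -1.78 was furthest from 0. Recovery at smaller shifts was not measured. Counting errors of low genes add to the spread between pools, and the reads per gene bound their precision. Named members were 8 genes set by name (CSF1R, CD163, CD68, CD14, PTPRC, AIF1, TYROBP and SPI1), the 10 highest in mean FPKM and, per comparison, the 5 largest fold changes among those without overlap; values of others were added after they were seen. The members and lists were chosen with earlier results of these data known. Alternatives were another pseudocount, filters, scaling, moderation, the replicate number as a block, and leaving out libraries.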

Additional observations from a re-analysis of the deposited data

Results flagged for a closer look

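Between highland and lowland, 5 members differed in opposite directions in the 2 breeds, with no overlap between groups in either, as 11.3% of all genes did. The interaction on the log2 scale was -1.85 for FCGR2B (SE 0.325, limma adjusted p = 0.234), -1.65 for PTPRC (SE 0.325, adjusted p = 0.256), -1.48 for CSF1R (SE 0.359, adjusted p = 0.300), -0.68 for CEBPB (SE 0.448, adjusted p = 0.589) and 2.12 for CTSB (SE 1.102, adjusted p = 0.524). No member passed the test of the interaction.

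FCGR2B, PTPRC and CSF1R were lower in TH than in TL and higher in YH than in YL. Without YL2 their interactions were -1.91, -1.85 and -1.42. For CTSB the interaction was 0.74 without YL2, and for CEBPB it was -0.22, so both rest largely on that library, and without YL1 the interaction of CTSB was 3.51 and passed the threshold (adjusted p = 0.00424) and that of CEBPB was -1.14 (adjusted p = 0.0728). With 2 libraries per group, no test within a group could tell which of the 2 was outlying.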

How the results depend on the processing

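Members called stayed at 0 under every alternative that kept all libraries. Genes called over the whole table came to 0 with limma on log2(scaled reads + 1), added after seeing the data, in all 4 comparisons and in the interaction. With only the 4 libraries compared they were 2 in TL to YL and 11 in TH to TL, and with a pseudocount of 0.1 they were 1 in YH to YL. Members with an unadjusted p under 0.05 numbered 3, 1, 3 and 2 in TH to YH, TH to TL, YH to YL and the interaction with the filter at a mean of 5 FPKM, which leaves fewer to test. In TL to YL they numbered 1 with a pseudocount of 0.1, median-ratio scaling, only 4 libraries or scaled reads, and median-ratio scaling gave 3 in TH to TL. Their median log2 fold change was -0.54 in TH to YH with scaled reads, 0.45 in YH to YL with a pseudocount of 0.1 and 0.46 with scaled reads, and -0.33 in the interaction with a pseudocount of 0.1, and without a filter it was 0.12 in YH to YL and -0.03 in the interaction. In TH to TL it was 0.03, against 0.02 without a filter, 0.10 with the filter at a mean of 5 FPKM, -0.04 with median-ratio scaling and -0.09 with scaled reads. In TL to YL it was -0.07, against -0.04 without a filter, -0.20 with the filter at 5 FPKM, -0.13 with median-ratio scaling and -0.16 with scaled reads. The interaction gave -0.21 with the filter at 5 FPKM and -0.22 with scaled reads. The cause was not tested.

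Leaving out 1 library gave 3 to 6 genes called in TH to YH, 1 to 305 in TL to YL, 4 to 13 in TH to TL, 0 to 305 in YH to YL and 4 to 152 in the interaction. Members called were 0 to 1, 0 to 2 and 0 to 1 in TL to YL, YH to YL and the interaction, and 0 in the rest. The upper ends of these came without YL1. Members at an unadjusted p under 0.05 were 4 to 9, 0 to 7, 1 to 7, 2 to 14 and 3 to 13 in that order of comparisons, and their medians ran from -0.44 to -0.17, -0.12 to 0.11, -0.12 to 0.17, 0.16 to 0.42 and -0.39 to -0.10. The lone library of a reduced group is assumed to vary like the others. All 46 fold changes followed kept their sign, which the choice of members without overlap largely fixes.

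The replicate number as a block gave 3, 1, 4, 0 and 4 genes called, 0 members called, and 7, 0, 6, 7 and 5 members at an unadjusted p under 0.05. Same-numbered libraries deviated together by correlations of only -0.084 to 0.118, so the numbers do not pair them. The edgeR quasi-likelihood test was not run, since whole reads could not be recovered for all genes. Genes under 1 FPKM rest on few reads.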

Other observations

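MRC1, the mannose receptor of resident macrophages, and CD80, a partner of CD86, have no row under their symbol but 1 each through their Ensembl ID. MRC1 measured 1.22 and 3.14 FPKM in TH1 and TH2, 4.38 and 2.90 in TL1 and TL2, 3.68 and 4.65 in YH1 and YH2, and 3.20 and 2.34 in YL1 and YL2, with a log2 fold change of -0.76 in TH to YH (SE 0.348, limma adjusted p = 0.343), or -0.31 without TH1 and -1.21 without TH2. The YH libraries were above both TH libraries for it. CD80 was between 0.283 and 1.0 FPKM and was not tested.

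Lists of other cells gave further values. Fibroblast markers summed to between 202 FPKM in TH1 and 830 in TL1. Of the 9 rows tested, which count COL1A1 by 2 rows, 5 were higher in TL than in YL at an unadjusted p under 0.05 and 0 lower. Of all genes 5.9% were higher and 3.04% lower. Endothelial markers summed to between 108 FPKM in YL2 and 197 in TH2, and of 7 tested, 3 were higher in TL than in YL at that p. Red blood cell markers summed to between 531 FPKM in YL2 and 3100.0 in TH1. Of 4 tested, 3 were higher in TH than in YH at an unadjusted p under 0.05, where 7.71% of all genes were. GNLY, a granule protein of T and natural killer cells, was 1.17 and 1.39 FPKM in TH against 10.6 and 20.5 in TL, with a log2 fold change of -2.79 (SE 0.390, adjusted p = 0.0914). None of these lists held a called gene.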
